A study of Mus musculus with 10 samples.

Results

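The genes described here are 10 genes of de novo fatty acid synthesis, the pathway that turns acetyl-CoA into long fatty acids in the cytosol. They are Acly, Acss2, Acaca, Acacb, Fasn, Elovl6, Scd1, Scd2, Srebf1 and Thrsp, listed for their known roles and found by symbol among the 31218 genes of the deposited table. Each has 1 row there, and all 10 had enough counts to be tested. The list was chosen with earlier results of these data known. RNA was sequenced from livers of 10 mice that had eaten a high-fat diet for 16 weeks. Of these, 5 carried a hepatocyte-specific knockout of Me1 (HKO), written in the labels as Me1 Alb/Alb, and 5 were littermates with the genotype Me1 flox/flox (Flox), which the labels call wild-type. The sources used here do not give the Cre driver, sex, age, litter or batch, and no group on another diet is among the samples. Livers are numbered 1 to 5 within a group by sample order, and p-values measure the spread between these livers.

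Me1 encodes the cytosolic malic enzyme, which makes NADPH from malate, and fatty acid synthase uses NADPH as its reductant. In the pathway, Acly and Acss2 make cytosolic acetyl-CoA, the acetyl-CoA carboxylases turn it into malonyl-CoA, Fasn builds palmitate, Elovl6 lengthens palmitate, and the stearoyl-CoA desaturases add a double bond. In liver, SREBP-1c (from Srebf1) and ChREBP (from Mlxipl) are the main transcription factors that drive these genes in response to insulin and glucose.

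Me1 was low in every library labelled HKO. Its level was 4.90 to 7.00 FPKM (fragments corrected for library size and gene length) in HKO livers and 30.2 to 46.7 FPKM in Flox livers, with no overlap. The remaining reads do not show which cells or which part of the gene they came from.

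The libraries held 52790000 to 60765120 counts each. Hepatocyte markers were abundant throughout, with Alb at 20200 to 24700 FPKM in HKO livers and 21500 to 26400 FPKM in Flox livers. HKO livers 4 and 5 stood apart: the summed level of 9 epidermis and sebaceous gland markers was 147 to 157 FPKM there, 0.318 to 2.49 FPKM in HKO livers 1 to 3, and 0.38 to 0.904 FPKM in Flox livers. The 8 skeletal muscle markers summed to 140 to 152 FPKM in HKO livers 4 and 5, 2.1 to 2.82 FPKM in HKO livers 1 to 3, and 0.136 to 2.00 FPKM in Flox livers. Xist was at 1.30 and 1.36 FPKM in HKO livers 4 and 5 and at most 0.149 FPKM elsewhere, while the Y-linked gene Ddx3y was at 7.32 to 8.82 FPKM in all 10 livers. Whether RNA of another tissue or animal entered HKO libraries 4 and 5 was not tested, and this doubt bears on every value from them. The adipocyte marker Adipoq was at 1.80 and 1.52 FPKM in HKO livers 4 and 5, 0.0431 FPKM in HKO liver 1 and 0 in the other HKO livers and in all Flox livers. Macrophage markers summed to 77.3 to 96.3 FPKM in HKO livers and 38.5 to 85.8 FPKM in Flox livers, with 3 of 7 genes higher by the test used below. Stellate and endothelial markers summed to 30.6 to 47.1 FPKM in HKO livers and 12.2 to 23.8 FPKM in Flox livers, also with 3 of 7 genes higher. Hepatocyte markers summed to 32100 to 37500 FPKM in HKO livers and 38600 to 43000 FPKM in Flox livers, with 3 of 10 genes lower. These markers did not move together. Apoa1 was at 2290 to 3190 FPKM in HKO livers and 4340 to 5810 FPKM in Flox livers. Serpina1c was at 1740 to 2640 FPKM in HKO livers and 2740 to 4190 FPKM in Flox livers. Apob went the other way, at 319 to 381 FPKM in HKO livers and 293 to 317 FPKM in Flox livers. The sum therefore does not measure hepatocyte content. The part of these differences in the results below was not tested, except that values without HKO livers 4 and 5 are given. In whole-liver RNA, fewer cells of a type and less RNA per cell cannot be told apart.

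Promoter sequences from RefSeq (GRCm38.p6), each running from 250 bases before to 50 bases after an annotated start, were found for 8 of the 10 genes, with 3 entries for Srebf1. Those of Elovl6, which differed most between the groups, Acss2, which held the most of the motifs searched, and Fasn, the central enzyme, are printed 5′ to 3′ with CCAAT (or ATTGG, its reverse complement) and the GC box GGGCGG (or CCGCCC) in capitals.
Elovl6, chr3:129532136-129532435, plus strand: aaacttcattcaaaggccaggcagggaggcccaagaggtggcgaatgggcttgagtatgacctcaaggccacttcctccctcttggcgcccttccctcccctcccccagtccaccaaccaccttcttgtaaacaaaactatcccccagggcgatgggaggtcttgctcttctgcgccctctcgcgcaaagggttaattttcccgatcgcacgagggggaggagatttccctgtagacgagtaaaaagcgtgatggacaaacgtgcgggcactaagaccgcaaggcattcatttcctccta
Acss2, chr2:155517793-155518092, plus strand: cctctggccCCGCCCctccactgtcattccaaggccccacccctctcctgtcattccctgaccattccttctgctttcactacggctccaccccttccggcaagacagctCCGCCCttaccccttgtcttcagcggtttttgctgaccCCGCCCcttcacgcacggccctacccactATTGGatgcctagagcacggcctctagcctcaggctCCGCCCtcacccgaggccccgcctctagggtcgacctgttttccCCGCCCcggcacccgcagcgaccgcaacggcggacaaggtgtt
Fasn, chr11:120824498-120824797, minus strand: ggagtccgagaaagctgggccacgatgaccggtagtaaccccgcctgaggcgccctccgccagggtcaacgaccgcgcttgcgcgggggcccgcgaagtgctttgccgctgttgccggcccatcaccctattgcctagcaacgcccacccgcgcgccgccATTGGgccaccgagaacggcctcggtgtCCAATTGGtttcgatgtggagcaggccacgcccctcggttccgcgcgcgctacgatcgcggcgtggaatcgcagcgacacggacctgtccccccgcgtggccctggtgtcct

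The Elovl6 window held none of the motifs, the Acss2 window held 1 CCAAT and 5 GC boxes, and the Fasn window held 3 CCAAT matches, of which 2 overlap in CCAATTGG. Of the 10 windows, 7 held CCAAT, which stands in 37.4% of all 32851 promoter windows, and 4 held the GC box, which stands in 35.7%. The E-box CACGTG was in 0 of the 10 windows and 7.15% of all windows, and the sterol response element core TCACNCCAC was in 0 and 1.24%. Both strands were searched throughout. The Acaca entry, which held none of these motifs, the Acacb entry and 2 of the 3 Srebf1 entries lie inside the genes as the deposited table draws them, so they do not cover the table's starts of those genes. These matches describe letters and not sites of binding.

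All 10 genes had a higher mean level in HKO livers than in Flox livers, but only Elovl6, Acaca and Acss2 passed the test. The test was edgeR's quasi-likelihood test over 18065 genes at an adjusted p under 0.05, on counts; values per liver are given as CPM, counts scaled to library size with TMM factors. Of these 10 genes 3 rose and 0 fell, where 4.86% of all tested genes were called higher, 6.40% lower and 11.3% in either direction. The median log2 fold change (HKO minus Flox) of the 10 genes was 0.57, against 0.016 for all tested genes, of which 52.0% were positive. Of the 10 genes, 1 had all 5 HKO livers above all 5 Flox livers in CPM, as had 4.41% of all tested genes, and 0 had them all below, as had 6.48%.

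**Figure D1:**
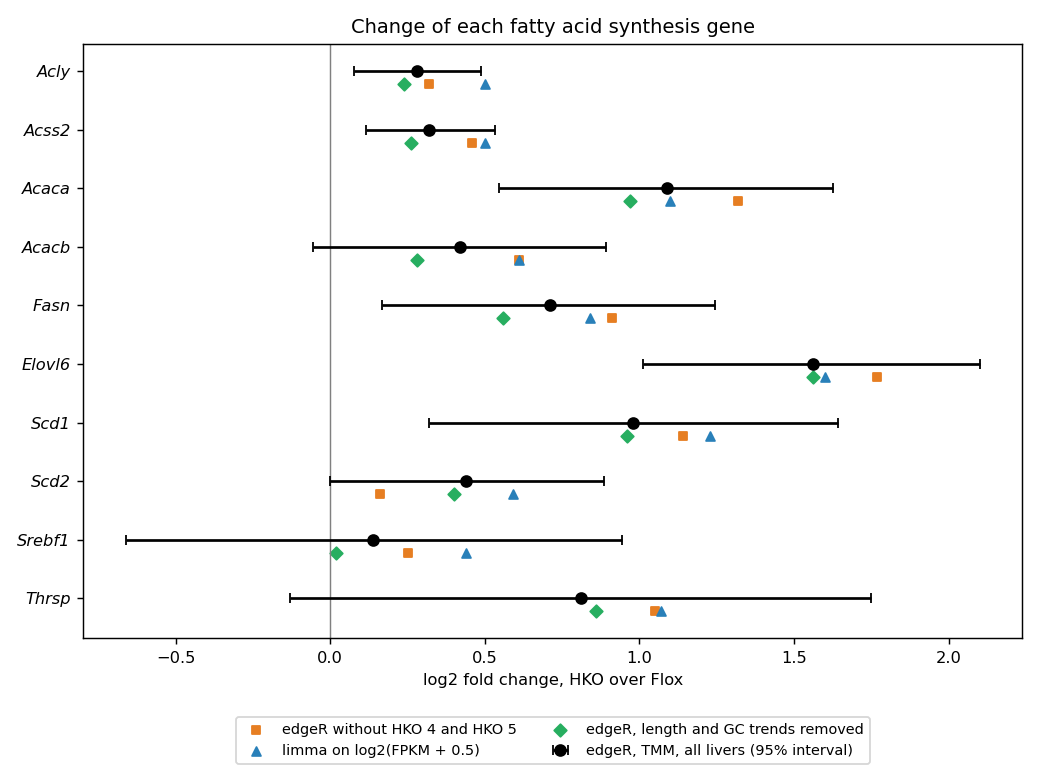
Log2 fold change (HKO minus Flox) of each of the 10 genes from the edgeR fit to all 10 livers, with its 95% interval, and, as smaller symbols, from edgeR without HKO livers 4 and 5, limma on log2(FPKM + 0.5), and edgeR with trends of gene length and GC content removed. Elovl6 lies furthest from 0 at 1.56 and Srebf1 nearest at 0.14.

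The enzymes that supply acetyl-CoA had the smallest differences after Srebf1. Acly, ATP-citrate lyase, splits citrate exported from mitochondria (ENSMUSG00000020917, chromosome 11, 100476353 to 100528000, minus strand). Its level was 109.5, 125.5, 126.2, 105.3 and 122.6 CPM in HKO livers 1 to 5, against 99.41, 78.91, 94.66, 113.7 and 97.67 CPM in Flox livers 1 to 5. Flox liver 4 lay within the HKO range, and the other 4 Flox livers lay below it. The log2 fold change was 0.28 (SE 0.09, 95% interval 0.078 to 0.488, edgeR adjusted p = 0.0751), which did not pass. It passed in edgeR without Flox liver 4 (adjusted p = 0.0440) and in DESeq2 (adjusted p = 0.0481).

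Acss2, the acetyl-CoA synthetase that uses acetate, rose by a small amount. The gene (ENSMUSG00000027605, chromosome 2, 155517948 to 155576980, plus strand) had 110.8, 127.6, 117.8, 85.43 and 101.2 CPM in HKO livers, against 93.45, 83.88, 85.17, 85.68 and 85.41 CPM in Flox livers. HKO liver 4 lay among the Flox livers and the other 4 HKO livers above all of them. The means were 108.5 ± 16.1 CPM in HKO livers and 86.7 ± 3.83 CPM in Flox livers (SD, n = 5 each), a 1.25-fold difference with a log2 fold change of 0.32 (SE 0.10, 95% interval 0.115 to 0.533, edgeR adjusted p = 0.0498). The call was lost when any 1 liver other than HKO 4 or Flox 1 was left out (edgeR adjusted p from 0.0618 to 0.106), and the adjusted p was 0.00547 without HKO livers 4 and 5. Acss2 overlaps Gss on the opposite strand over 13800 bases, and the sources used here do not say whether counting used strand. Gss itself did not pass, at 0.19 on the log2 scale (edgeR adjusted p = 0.353).

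Of the carboxylases, Acaca rose 2.12-fold and Acacb did not pass. Acaca encodes ACC1, the cytosolic enzyme that feeds fatty acid synthesis (ENSMUSG00000020532, chromosome 11, 84129672 to 84401645, plus strand). It had 84.75, 145.5, 154.7, 61.82 and 98.48 CPM in HKO livers, against 52.55, 41.69, 48.91, 66.49 and 47.13 CPM in Flox livers. HKO liver 4 fell below Flox liver 4, and the other 4 HKO livers exceeded all Flox livers. The means were 109.1 ± 39.8 CPM in HKO livers and 51.4 ± 9.33 CPM in Flox livers (SD, n = 5 each), with a log2 fold change of 1.09 (SE 0.24, 95% interval 0.547 to 1.626, edgeR adjusted p = 0.0192). The call held with each liver left out (edgeR adjusted p from 0.00476 to 0.0498). Without HKO livers 4 and 5 the log2 fold change was 1.32 (edgeR adjusted p = 0.00934).

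Acacb encodes ACC2, the isoform at the mitochondrial surface whose malonyl-CoA restrains fatty acid import (ENSMUSG00000042010, chromosome 5, 114146535 to 114250761, plus strand). It had 138.5, 119.3, 101.3, 92.42 and 73.99 CPM in HKO livers, against 99.93, 105.5, 66.01, 54.11 and 67.95 CPM in Flox livers. The groups overlapped: HKO livers 1 and 2 lay above all Flox livers and HKO livers 4 and 5 below Flox livers 1 and 2. The log2 fold change was 0.42 (SE 0.21, edgeR adjusted p = 0.239), and its 95% interval of -0.057 to 0.892 includes no difference as well as one near that of Acaca.

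Fasn, fatty acid synthase, makes palmitate from malonyl-CoA and NADPH. Its mean was 1.63-fold higher in HKO livers, but this did not pass the test. The gene (ENSMUSG00000025153, chromosome 11, 120805846 to 120824547, minus strand) had 217.8, 380.2, 355.8, 144.9 and 284.7 CPM in HKO livers, against 153.3, 132.9, 180.4, 215.4 and 166.0 CPM in Flox livers. HKO livers 1, 2, 3 and 5 lay above all Flox livers, HKO liver 1 narrowly so, and HKO liver 4 lay below 4 of the 5. The means were 276.7 ± 97.3 CPM in HKO livers and 169.6 ± 31.0 CPM in Flox livers (SD, n = 5 each), with a log2 fold change of 0.71 (SE 0.24, 95% interval 0.168 to 1.245, edgeR adjusted p = 0.0903). Without HKO liver 4 the log2 fold change was 0.87 (edgeR adjusted p = 0.0140), and without HKO livers 4 and 5 it was 0.91 (adjusted p = 0.0350).

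Elovl6, the elongase that turns palmitate into stearate, rose most of the 10 genes, and it was the only one with no overlap between the groups in CPM. The gene (ENSMUSG00000041220, chromosome 3, 129532355 to 129634971, plus strand) had 79.24, 133.9, 143.1, 53.17 and 104.4 CPM in HKO livers, against 39.51, 31.43, 30.90, 40.57 and 32.18 CPM in Flox livers. The lowest HKO liver, number 4, still lay above the highest Flox liver. The means were 102.8 ± 37.5 CPM in HKO livers and 34.9 ± 4.71 CPM in Flox livers (SD, n = 5 each), 2.94-fold, with a log2 fold change of 1.56 (SE 0.24, 95% interval 1.013 to 2.101, edgeR adjusted p = 0.00405). With each liver left out in turn the log2 fold change ran from 1.41 to 1.73 (edgeR adjusted p from 5.65e-04 to 0.0142), and without HKO livers 4 and 5 it was 1.77 (adjusted p = 0.00275).

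Scd1, the main hepatic stearoyl-CoA desaturase, makes oleate and palmitoleate. It was by far the most abundant of the 10 genes, and its mean in HKO livers was 1.97-fold that in Flox livers without passing the test. The gene (ENSMUSG00000037071, chromosome 19, 44394455 to 44407709, minus strand) had 9088, 15770, 11880, 6489 and 11760 CPM in HKO livers, against 9700, 4052, 3767, 4511 and 5850 CPM in Flox livers. Flox liver 1 reached the HKO range, and the other 4 Flox livers lay below every HKO liver. The log2 fold change was 0.98 (SE 0.30, 95% interval 0.318 to 1.642, edgeR adjusted p = 0.0612). Leaving out Flox liver 1 gave 1.27 (edgeR adjusted p = 0.00857), leaving out HKO liver 4 gave 1.13 (adjusted p = 0.0374), and leaving out HKO livers 4 and 5 together gave 1.14 (adjusted p = 0.0927).

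Scd2, an isoform known for its expression in brain and in neonatal liver, was measured at far lower levels (ENSMUSG00000025203, chromosome 19, 44293674 to 44306864, plus strand). It had 34.98, 42.75, 40.01, 48.37 and 73.02 CPM in HKO livers, against 26.93, 36.56, 30.65, 44.94 and 37.09 CPM in Flox livers. HKO livers 4 and 5, the libraries with epidermis and muscle transcripts, were the only ones above all Flox livers. The log2 fold change was 0.44 (SE 0.20, 95% interval -0.001 to 0.884, edgeR adjusted p = 0.184) and 0.16 (adjusted p = 0.649) without those livers. The transcripts of Scd1 share 2.97% of their 50-base windows with those of Scd2, and how reads from such stretches were assigned is not stated, so the level of Scd2 beside the far more abundant Scd1 is uncertain.

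In Flox livers the regulators in the list, Srebf1 and Thrsp, varied most of the 10 genes. Srebf1 encodes the precursors of SREBP-1a and SREBP-1c (ENSMUSG00000020538, chromosome 11, 60199089 to 60222581, minus strand), and the counts do not separate the isoforms. It had 167.4, 93.41, 117.8, 69.12 and 138.1 CPM in HKO livers, against 198.6, 55.99, 109.4, 109.1 and 58.17 CPM in Flox livers. No HKO liver exceeded every Flox liver, since Flox liver 1 was the highest of all 10. The log2 fold change was 0.14 (SE 0.36, edgeR adjusted p = 0.842), and its 95% interval of -0.66 to 0.943 leaves room for a difference in either direction. It turned to -0.01 without HKO liver 1 or without Flox liver 5, and to -0.02 without Flox liver 2.

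Thrsp, the thyroid hormone responsive protein Spot 14, is a nuclear protein linked to the control of lipogenic enzymes (ENSMUSG00000035686, chromosome 7, 97412938 to 97417730, minus strand). It had 75.09, 94.50, 115.7, 31.25 and 87.91 CPM in HKO livers, against 95.41, 23.21, 46.29, 36.86 and 29.02 CPM in Flox livers. HKO livers 1, 2, 4 and 5 and Flox livers 1, 3 and 4 lay within the other group's range. HKO liver 3 alone lay above all Flox livers. The log2 fold change was 0.81 (SE 0.42, 95% interval -0.13 to 1.749, edgeR adjusted p = 0.249).

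**Figure D2:**
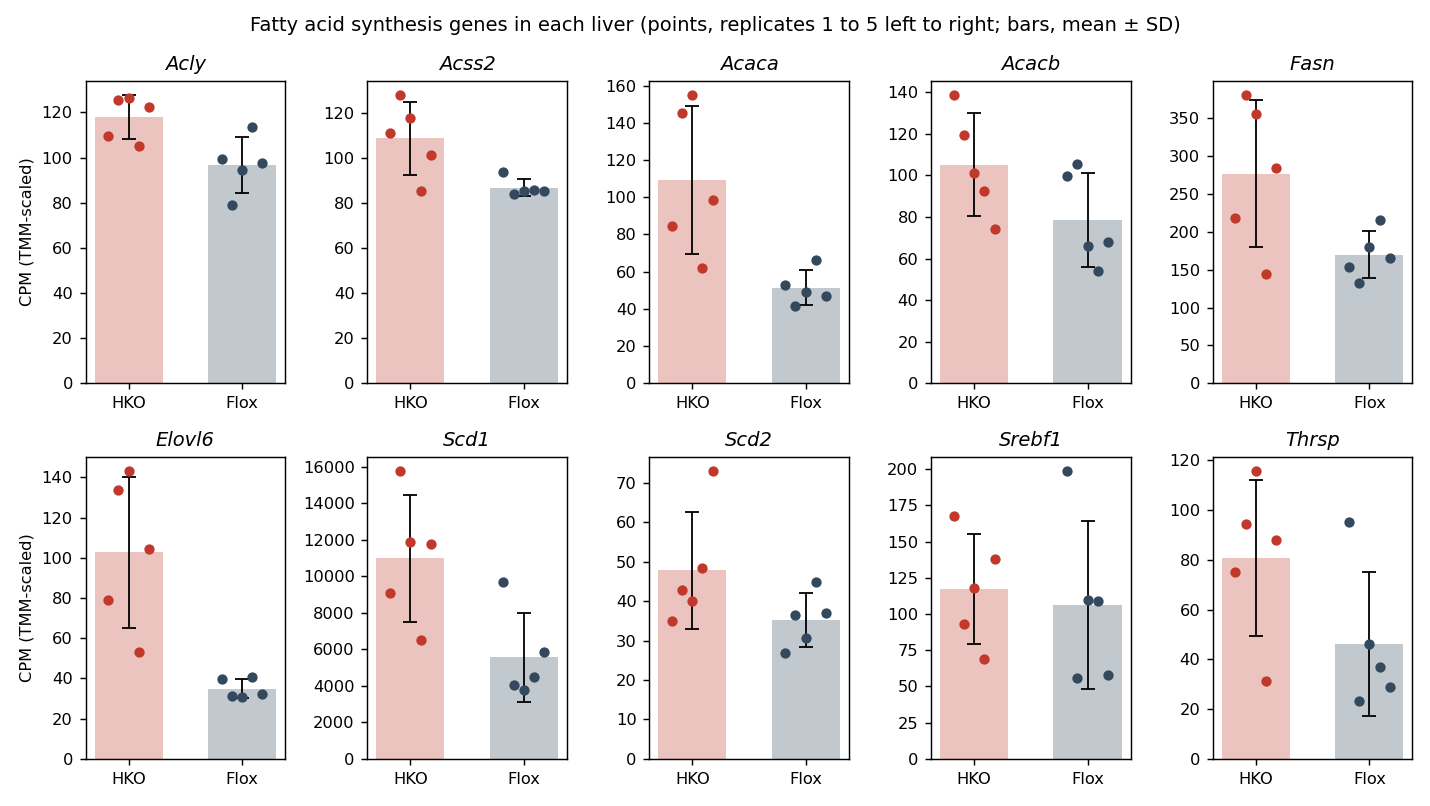
CPM of each of the 10 genes in every liver on axes that start at 0, HKO livers left of Flox livers in each panel, with 1 point per liver and bars for the mean ± SD. Only in Elovl6 do the points of the groups not overlap.

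The number of calls changed little with the scaling factors alone and more with other tests and units. With edgeR, RLE factors gave 2 calls among the 10 genes (4.82% of all tested genes called higher) and upper-quartile factors 4 (5.66%), against 3 with TMM. In HKO livers the scaling factors were 0.998 to 1.16, against 0.896 to 0.965 in Flox livers, so CPM divides HKO values by more than the deposited FPKM does. In FPKM, without that scaling, the median of all genes was 0.145 higher in log2 in HKO livers, and limma on log2(FPKM + 0.5) called 7 of the 10 genes higher: Acly, Acss2, Acaca, Acacb, Fasn, Elovl6 and Scd1, where it called 17.8% of all tested genes higher. Relative to that median, the differences ran from 0.30 for Srebf1 to 1.45 for Elovl6. Acly, Acss2, Acaca and Elovl6 had all 5 HKO livers above all Flox livers in FPKM, as had 14.2% of all tested genes. DESeq2 called 6 of the 10 higher (8.67% of all tested genes) and limma after quantile normalization 5 (4.89%). Without HKO liver 4 edgeR called 5 (4.29%), without HKO livers 4 and 5 it called 4 (2.45%), and with trends of gene length and GC content and the level of each liver removed it called Elovl6 alone (2.73%).

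Levels between genes were compared in FPKM. Scd1 averaged 2133 ± 649 FPKM in HKO livers and 922 ± 379 FPKM in Flox livers (SD, n = 5 each). It made up 92.4% to 94.7% of the summed FPKM of the 10 genes in HKO livers and 88.2% to 93.2% in Flox livers, and 0.753% to 1.65% of all counts in HKO livers against 0.360% to 0.869% in Flox livers. Among all genes of a liver it ranked between 20 and 51 by FPKM in HKO livers and between 44 and 88 in Flox livers.

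The other 9 genes lay far lower. In HKO livers the order of mean levels after Scd1 was Thrsp (34.97 FPKM), Fasn (23.96), Acly (21.3), Srebf1 (19.6), Elovl6 (15.2), Acacb (10.3), Acss2 (10.1), Scd2 (8.43) and Acaca (6.05 FPKM). Only Scd1 and Thrsp, of the neighbours in this order, had ranges that did not overlap. In Flox livers it was Thrsp (17.1 FPKM), Srebf1 (15.3), Acly (14.9), Fasn (12.6), Acss2 (6.95), Acacb (6.67), Scd2 (5.26), Elovl6 (4.42) and Acaca (2.45 FPKM). There Scd1 and Thrsp, Fasn and Acss2, and Elovl6 and Acaca did not overlap. Elovl6 was 6th in HKO livers and 9th in Flox livers, while Acaca was 10th in both.

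Livers within a group differed as much as the groups did for several genes. HKO liver 4 was the lowest HKO liver for 8 of the 10 genes, all except Acacb and Scd2. Its median over the 10 genes was 0.21 above the mean log2 CPM of the Flox livers. In HKO livers 1, 2, 3 and 5 that median was 0.77, 0.92, 0.77 and 0.86. HKO livers 4 and 5 carried similar amounts of epidermis and muscle transcripts, and the part of these in the values was not tested. In Flox livers it was 0.15, -0.28, -0.04, 0.21 and -0.06, and Flox liver 2 was the lowest of all 10 livers for 6 genes.

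The genes did not share a single order of livers. HKO liver 3 was the highest of all 10 livers for 4 genes, HKO liver 2 for 3, and HKO livers 1 and 5 and Flox liver 1 for 1 each. Among Flox livers, liver 4 was highest for 5 genes and liver 1 for 4 (Acss2, Scd1, Srebf1 and Thrsp). The coefficient of variation was larger in HKO livers for Acaca (36.5% against 18.2% in Flox livers), Fasn (35.2% against 18.3%) and Elovl6 (36.4% against 13.5%). The same held for Acss2 (14.9% against 4.41%) and Scd2 (31.1% against 19.5%). The coefficient was larger in Flox livers for Scd1 (31.5% in HKO livers against 43.8%), Srebf1 (32.6% against 54.5%) and Thrsp (38.8% against 62.5%). Acly (8.25% against 12.8%) and Acacb (23.6% against 28.8%) also varied more in Flox livers. Differences in spread were not tested.

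**Figure D3:**
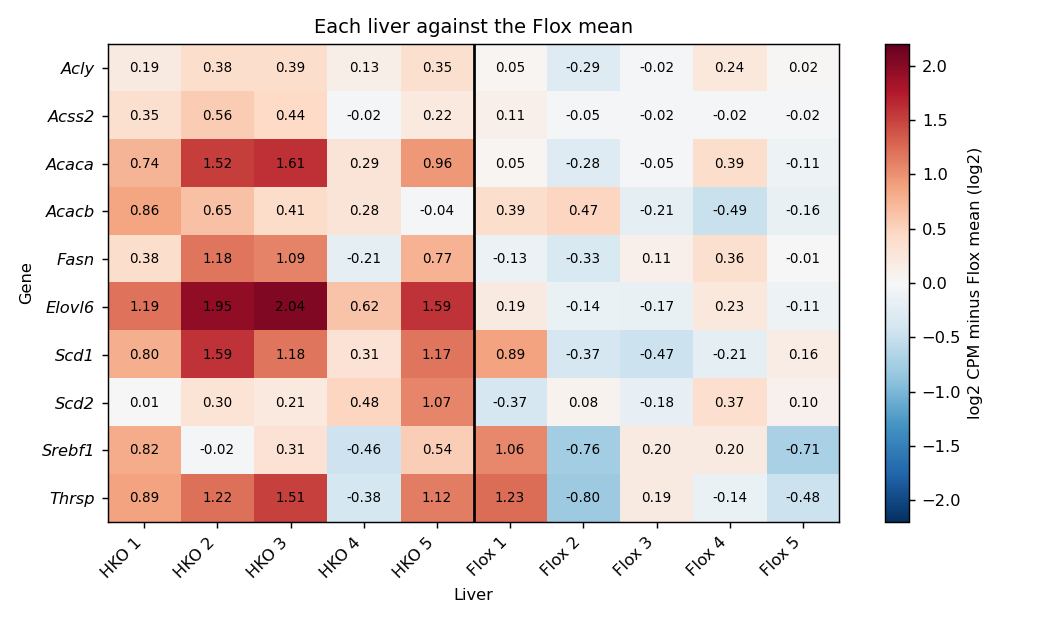
Log2 CPM of each gene (rows) in each liver (columns, HKO left of Flox) minus the mean log2 CPM of the Flox livers, as colour. Acly, Acaca, Elovl6, Scd1 and Scd2 are above 0 in all 5 HKO livers, with Scd2 at only 0.01 in HKO liver 1. HKO liver 4 has the lowest median of the HKO columns at 0.21. Flox liver 1 is furthest above the Flox mean for Thrsp (1.23), Srebf1 (1.06) and Scd1.

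Ratios within a liver compared genes with related roles. The Acaca to Acacb ratio in FPKM was 0.345, 0.688, 0.861, 0.377 and 0.751 in HKO livers, against 0.297, 0.223, 0.418, 0.693 and 0.391 in Flox livers. HKO livers 1, 2 and 4 lay within the Flox range, and only Flox livers 1 and 2 lay below all HKO livers. The log2 difference was 0.59 (exact two-sided permutation p = 0.183, adjusted p = 0.298 over 3 ratios).

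The Scd1 to Scd2 ratio averaged 273 ± 108 in HKO livers and 190 ± 121 in Flox livers (SD, n = 5 each), with a log2 difference of 0.60 (exact permutation p = 0.198, adjusted p = 0.298). HKO livers 4 and 5, at 150 and 180, were the lowest of their group, and Flox liver 1, at 403, was above 4 of the 5 HKO livers. The Acly to Acss2 ratio averaged 2.11 ± 0.23 in HKO livers and 2.15 ± 0.27 in Flox livers (SD, n = 5 each), with a log2 difference of -0.02 (exact permutation p = 0.825, adjusted p = 0.825). This value moved between -0.08 and 0.04 with each liver left out, so its sign is not fixed. With 5 livers in each group, the smallest two-sided p this test can give is 0.00794.

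**Figure D4:**
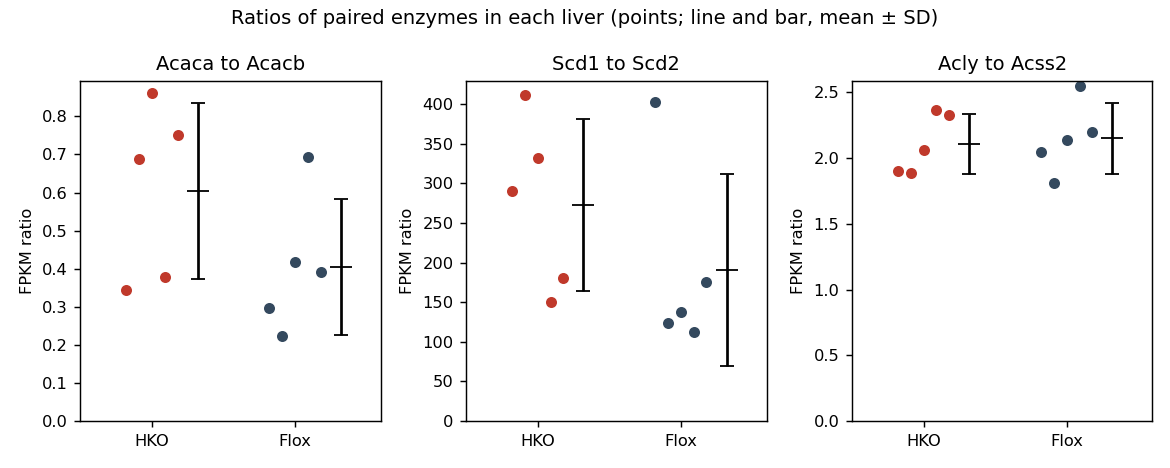
FPKM ratio per liver, on axes that start at 0, for Acaca to Acacb, Scd1 to Scd2, and Acly to Acss2, HKO livers left of Flox livers, with 1 point per liver and a bar for the mean ± SD. The groups overlap in each ratio, and Acly to Acss2 has nearly the same mean in both groups, at 2.11 in HKO livers and 2.15 in Flox livers.

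The genes whose pattern over the 10 livers came closest to Fasn were found as those with the smallest root mean square difference in log2 CPM after each gene was centred on its mean. Among 18064 other genes the first of these were Kif22, a kinesin of mitosis (0.204), and Ckap2, a cytoskeleton-associated protein (0.213). Acaca was the 4th nearest at 0.224, followed among the 10 genes by Acss2 at rank 106 (0.341) and Acly at rank 124 (0.347). Elovl6 ranked 1330th (0.448), Scd1 1939th (0.467) and Srebf1 10740th (0.639). The measure counts differences in size as well as in direction, so a low rank does not show that a gene failed to follow Fasn. Elovl6 differed more between the groups, with a log2 fold change of 1.56 against 0.71 for Fasn. Fasn itself varied by 0.51 around its mean on the same measure. For Scd1, which varied by 0.686, the nearest were Pakap (ENSMUSG00000038729) at 0.25, Ces2c, a carboxylesterase, at 0.258 and the predicted gene Gm21451 at 0.264. Of the 10 genes, Acaca came nearest to Scd1 (rank 93, 0.395), followed by Elovl6 (rank 117, 0.406) and Thrsp (rank 186, 0.43). These likenesses describe 10 livers and carry no test.

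Other genes of the pathway and its control were read from 6 lists with 57 genes, of which 56 were tested. Of these, 6 rose and 11 fell, and 39 did not pass, with a median log2 fold change of -0.04. Of all tested genes, 4.86% were called higher and 6.40% lower.

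Among 16 genes for SREBP processing and lipogenic transcription factors, 1 rose, 5 fell and 10 did not pass (median -0.19). Pparg, the nuclear receptor of adipocyte differentiation that is also found in fatty liver, averaged 23.1 ± 4.10 CPM in HKO livers and 13.3 ± 2.88 CPM in Flox livers (SD, n = 5 each; log2 fold change 0.80, edgeR adjusted p = 0.00869). Every HKO liver lay above every Flox liver. Adipocyte markers summed to 64.8 to 108 FPKM in HKO livers and 37.2 to 105 FPKM in Flox livers. Most of this sum was Cidec and Cfd, which went opposite ways. Cidec was at 37.0 to 97.1 FPKM in HKO livers and 14.0 to 79.9 FPKM in Flox livers. Cfd was at 1.73 to 18.1 FPKM in HKO livers and 16.5 to 23.2 FPKM in Flox livers. The sum therefore does not measure adipocyte content, whose part in the Pparg values was not tested. Without HKO livers 4 and 5 Pparg was at 0.89 (edgeR adjusted p = 0.0217). Scap, which escorts SREBP precursors from the endoplasmic reticulum to the Golgi, averaged 113.1 ± 12.8 CPM in HKO livers and 150.5 ± 6.27 CPM in Flox livers (SD, n = 5 each; log2 fold change -0.41, edgeR adjusted p = 0.00733). Its groups did not overlap. Srebf2 (-0.31, edgeR adjusted p = 0.0377), Mlx (-0.20, 0.0452), Nr1h3 (-0.23, 0.0454) and Rxra (-0.26, 0.0494) also fell. They encode the SREBP of cholesterol synthesis, the partner of ChREBP, LXR alpha and its partner RXR alpha. On FPKM Mlx had a log2 fold change of 0.02, and with quantile normalization Rxra turned positive, so the direction of Mlx and Rxra rests on the scaling. Srebf2 and Nr1h3 were negative in 10 other scalings and tests, but on FPKM both came close to 0. There Srebf2 stood at -0.08 (limma adjusted p = 0.575) and Nr1h3 at -0.01 (limma adjusted p = 0.896), beside -0.03 for Rxra.

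Among 10 genes that control acetyl-CoA carboxylase, 3 rose and 2 fell (median 0.27). Prkaa2, a catalytic subunit of AMP-activated kinase, which phosphorylates and inhibits the carboxylases, averaged 55.3 ± 3.66 CPM in HKO livers and 43.1 ± 2.45 CPM in Flox livers (SD, n = 5 each; log2 fold change 0.36, edgeR adjusted p = 0.00519). Prkab2, a regulatory subunit of the same kinase, averaged 7.13 ± 1.26 CPM in HKO livers and 4.597 ± 0.718 CPM in Flox livers (0.63, edgeR adjusted p = 0.0241). Stk11, which encodes the kinase LKB1 that activates AMP-activated kinase, averaged 69.0 ± 5.38 CPM in HKO livers and 87.3 ± 3.03 CPM in Flox livers (-0.34, edgeR adjusted p = 0.00682). In each of these 3 genes the groups did not overlap. For Prkab2 the gap was narrow, between 5.854 CPM in the lowest HKO liver and 5.8 CPM in the highest Flox liver. The other listed subunits of the kinase did not pass: Prkaa1 stood at 0.35, Prkab1 at 0.26, Prkag1 at -0.07 and Prkag2 at -0.01 on the log2 scale (lowest edgeR adjusted p = 0.0665). Hlcs, which attaches biotin to the carboxylases, rose (0.53, edgeR adjusted p = 0.0256), and Mlycd, which degrades malonyl-CoA, fell (-0.31, adjusted p = 0.0334).

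Of 8 genes for the supply of citrate and NADPH, 1 rose and 1 fell (median 0.04). Pgd, which makes NADPH in the pentose phosphate pathway, averaged 60.6 ± 11.04 CPM in HKO livers and 35.1 ± 5.28 CPM in Flox livers (SD, n = 5 each; log2 fold change 0.79, edgeR adjusted p = 0.00509). Idh1, the cytosolic isocitrate dehydrogenase that also makes NADPH, averaged 207.1 ± 11.8 CPM in HKO livers and 261.2 ± 12.9 CPM in Flox livers (-0.34, edgeR adjusted p = 0.00632). G6pdx, an earlier enzyme of the pentose phosphate pathway, stood at 0.47 (edgeR adjusted p = 0.108), and Slc25a1, the citrate carrier, at 0.09 (adjusted p = 0.541). Both were named after their values were seen.

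Of 9 partners of elongation and desaturation, 0 rose and 2 fell (median 0.06): Hacd3, a dehydratase of the elongation cycle (log2 fold change -0.45, edgeR adjusted p = 0.00744), and Cyb5a, the cytochrome that passes electrons to the desaturases (-0.31, adjusted p = 0.0348). Cyb5a averaged 528 ± 49.8 CPM in HKO livers and 655.8 ± 52.9 CPM in Flox livers (SD, n = 5 each). Of the 5 tested genes of mitochondrial fatty acid synthesis, 0 rose and 1 fell, the reductase Mecr (-0.34, edgeR adjusted p = 0.0312). Of 8 targets of SREBP-1c and ChREBP outside the synthesis steps, 1 rose and 0 fell (median 0.00 to 2 decimals). It was Pklr, the liver pyruvate kinase and a classic ChREBP target, at 271.3 ± 66.1 CPM in HKO livers and 124.3 ± 26.8 CPM in Flox livers (2.18-fold, edgeR adjusted p = 0.00395).

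With each liver left out in turn, Pparg, Prkaa2, Pgd, Pklr, Scap, Stk11, Idh1 and Hacd3 passed in all 10 fits and also without HKO livers 4 and 5, and the other 9 calls were all lost without those livers. With single livers left out, Srebf2, Mlx and Rxra passed in 1 of 10 fits, Nr1h3 in 2, Mlycd and Mecr in 3, Cyb5a in 4, Prkab2 in 5 and Hlcs in 8. On FPKM, where the median of all genes lies higher in HKO livers, Scap alone of the 11 lower genes kept its call. Some genes at low levels differed by more without passing, and they are named after their values were seen. Scd3, a further desaturase, averaged 5.68 ± 2.04 CPM in HKO livers and 1.70 ± 1.38 CPM in Flox livers (SD, n = 5 each; edgeR adjusted p = 0.157). The groups did not overlap, but the gap was narrow, between 3.913 CPM in the lowest HKO liver and 3.734 CPM in the highest Flox liver. Without HKO livers 4 and 5, the libraries with epidermis and muscle transcripts, Scd3 was not called either. Pnpla3, a lipid droplet protein, averaged 0.466 ± 0.201 CPM in HKO livers and 0.111 ± 0.113 CPM in Flox livers (edgeR adjusted p = 0.077). Of 57 listed genes, Hsd17b8 was not matched by that symbol.

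**Figure D5:**
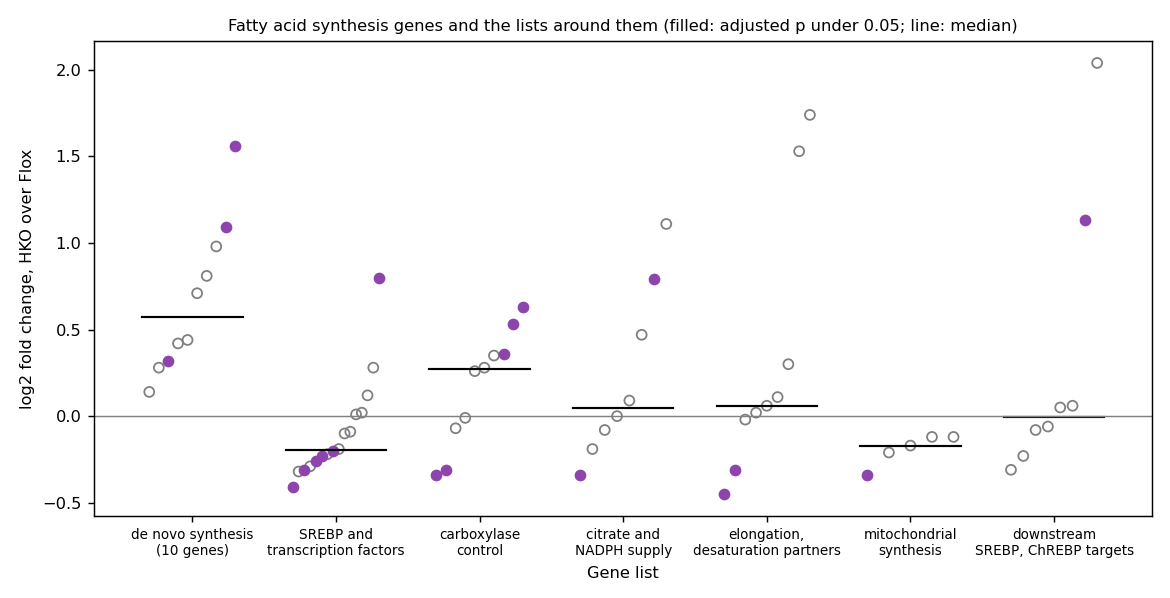
Log2 fold change (HKO minus Flox) of each tested gene of the 10 genes and of the 6 pathway lists, with genes past the threshold filled and the median of each list as a bar. The 10 synthesis genes all lie above 0, while the SREBP processing list has its median at -0.19.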

How the data were processed

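RNA of 5 HKO and 5 Flox livers was measured as polyadenylated, strand-marked libraries read in pairs of 150 bases, per the labels' protocols. Per the submitters' processing notes, HISAT2 2.2.1, StringTie 2.1.6 and cutadapt 1.9 were used, along with edgeR and DESeq2, in roles not stated. The deposited table gives, per its column names, a count and an FPKM value per gene and liver; the counts are whole numbers. No source used here names the build. Coordinates are those of the table, and 27221 of its genes, 6 of the 10 members among them, have the same ones in GENCODE M21 (GRCm38).

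From the counts, edgeR 4.0.16 in R 4.3.3 (filterByExpr, TMM, robust quasi-likelihood fit, two-sided, Benjamini-Hochberg over 18065 genes, threshold 0.05) gave the main test, and log2 fold changes are HKO minus Flox. Gene levels were compared in FPKM, and 3 FPKM ratios by exact permutation. Alternatives used DESeq2 1.42.0, limma 3.58.1 on log2(FPKM + 0.5) with other pseudocounts, other scalings, no filter, removal of gene length and GC trends, and omission of each liver. The edgeR step was checked on simulated counts.

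The form of trend removal was changed after its results had been seen: the first form also removed the level of each liver, and it is kept as an alternative added after seeing the data. The 10 genes, the pathway and marker lists, the omission of HKO livers 4 and 5 and the look at Xist and Y-linked genes were chosen with earlier results of these data known. Genes were named by rule: the 10 members, Me1, each pathway gene past the threshold, and the 3 nearest to Fasn and to Scd1, of which 1 is not reported here. Counts of the 10 genes ran from 1303 to 883116 per liver, so counting error was small beside the spread between livers.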

Additional observations from a re-analysis of the deposited data

Results flagged for a closer look

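Of 26 groups of 5 values checked, 2 had a liver far from the other 4, where chance flags about 1 in 20. Acss2 stood at 93.45 CPM in Flox liver 1, with the next Flox liver at 85.68 CPM, a gap of 0.812 of the group's range. The Scd1 to Scd2 FPKM ratio stood at 402.5 in Flox liver 1, with the next Flox liver at 176.2, a gap of 0.779 of the range. Flox liver 1 was also the highest of all 10 livers for Srebf1.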

How the results depend on the processing

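Against 3 members called higher, DESeq2 called 6, limma after quantile normalization 5, limma on FPKM 7 with each pseudocount (0.5, 0.1 and 1), and edgeR with trends and level removed 1; with each liver left out 2 to 5 were called, and 0 were lower throughout. Over all genes 878 were higher and 1156 lower. DESeq2 called 1566 higher. On FPKM 3212, 3253 and 3191 were higher and 396, 396 and 395 lower (pseudocounts 0.5, 0.1 and 1). With trends and level removed 493 were higher and 1960 lower, without HKO livers 4 and 5 454 and 539, and with each liver left out 498 to 1058 and 691 to 1162. The share of calls that were higher was 43.2%, against 89.0% on FPKM and 20.1% with trends and level removed, where the median of all genes was -0.089. Other pathway genes called higher numbered 6, against 10 after quantile normalization, 19 with each FPKM pseudocount, 3 with trends and level removed and 5 to 7 with each liver left out. Those called lower numbered 11, against 4 after quantile normalization, 7 without a filter, 1 with each FPKM pseudocount, 4 without HKO livers 4 and 5 and 4 to 8 with each liver left out. Elovl6 passed in all 22 alternatives and Acaca in 21, failing with trends and level removed (0.88, edgeR adjusted p = 0.0615). Acss2 failed in 13. Acss2 and Acaca had edgeR adjusted p = 0.145 and 0.0416 with trends alone removed. Srebf1 turned to -0.09 with trends and level removed, -0.01 without HKO liver 1, -0.02 without Flox liver 2 and -0.01 without Flox liver 5, and reached 0.49 without Flox liver 1. The Acly to Acss2 difference turned to 0.01 without HKO liver 1 or 2 and 0.04 without Flox liver 4, and lay at -0.08 without Flox liver 2. Causes beyond fewer livers or another scaling were not tested. No paired analysis was possible because the sources used here do not give litter or any other link between an HKO mouse and a Flox mouse. With 5 livers a group, the 95% interval of Srebf1 ran from -0.66 to 0.943, and it holds for that gene alone. The standard error was 0.36 for Srebf1 and 0.09 for Acly, so the size of difference that could be missed varied between genes.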
